A study of Mus musculus with 2 samples.

Results

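The 10 genes described here encode chloride channels measured in the mouse tongue: *Lrrc8a*, *Lrrc8b*, *Lrrc8c*, *Lrrc8d* and *Lrrc8e*, which encode the subunits of volume-regulated anion channels, the CLC genes *Clcn2*, *Clcn3*, *Clcn5* and *Clcn7*, and *Cftr*. They were picked out of the table by gene symbol, with no limit on their values, and all 10 had 1 row each among the 18498 rows of the expression table. RNA sequencing gave 2 libraries, 1 from the circumvallate papillae (CvP) and 1 from lingual epithelium free of papillae (Epi). Each was made from pooled RNA of 20 or more male C57BL/6J mice of 12 to 30 weeks on normal chow, with no edited allele in either group. In the study's RT-PCR work, CvP samples included epithelium next to the taste buds; for the sequenced tissue this was not stated. There was 1 library per tissue, so no value has a replicate error and no p-value was calculated.

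Volume-regulated anion channels open when a cell swells and let chloride and small organic solutes leave. They are assemblies of several LRRC8 proteins in which LRRC8A is needed for a working channel and the other subunits set which solutes pass. The CLC family holds plasma membrane chloride channels such as ClC-2 and vesicular exchangers, ClC-3, ClC-5 and ClC-7, which move chloride into endosomes and lysosomes against protons. CFTR, the protein altered in cystic fibrosis, is a chloride and bicarbonate channel of secretory epithelia that opens after phosphorylation by protein kinase A. The study compared the tissues in search of genes for the reception of concentrated salt in the CvP.

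The values are RPKM, mapped reads scaled to gene length and library depth. The libraries held about 28421050 mapped reads in CvP and 27960244 in Epi, as read from the steps between the lowest RPKM values. Intervals given below are 95% exact intervals from estimated reads, and they cover counting error only. Most genes were somewhat higher in CvP: over the 10363 rows with an RPKM of at least 1 in both libraries the median CvP/Epi ratio was 1.31, so a ratio near 1.31 was the ordinary one. The 12 taste cell markers had a summed RPKM of 667 in CvP and 6.10 in Epi, and all 12 were higher in CvP. The 8 epithelial markers summed to 34900 and 89287, most of it *Krt13* (17549 and 47815) and *Krt4* (11801 and 22406), and 1 of the 8 was higher in CvP. Markers of immune cells (156 in CvP and 7.01 in Epi) and of skeletal muscle (5.19 and 56.8) also differed. Most of the immune sum in CvP was *Lyz2* (132 and 0.43). In bulk tissue, a change in the number of cells of one type cannot be told apart from a change in RNA per cell.

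The genes are related, so the sequences were compared to see whether a read of 75 bases could come from either of 2 members. The most alike coding windows of 75 bases are shown for the LRRC8 subunits and for the CLC members, 5′ to 3′ along the gene, with the bases that differ within each pair in capitals.
Lrrc8a: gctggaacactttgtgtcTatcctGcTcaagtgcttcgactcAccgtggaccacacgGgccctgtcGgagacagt
Lrrc8b: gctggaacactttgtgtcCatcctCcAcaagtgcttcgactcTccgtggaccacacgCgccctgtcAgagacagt
Clcn3: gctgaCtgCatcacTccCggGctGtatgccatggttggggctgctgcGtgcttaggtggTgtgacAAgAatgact
Clcn5: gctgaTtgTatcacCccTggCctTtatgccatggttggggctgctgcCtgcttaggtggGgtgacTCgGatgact

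The *Lrrc8a* and *Lrrc8b* windows differ at 6 of the 75 bases. The first lies on the plus strand of chromosome 2 of NCBI37/mm9 from 30111151 to 30111225, within exon 2 (of 3) of Lrrc8a-002 in GENCODE M1. The second lies on the plus strand of chromosome 5 from 105909252 to 105909326, within exon 4 (of 5) of Lrrc8b-202. Both are coding sequence, as are the *Clcn3* and *Clcn5* windows, which differ at 11 bases. These 2 are on the minus strand and cross an intron, from 63401966 to 63406083 on chromosome 8 (exons 10 and 11 of Clcn3-002) and from 6739103 to 6740510 on chromosome X (exons 12 and 13 of Clcn5-004). Over whole transcripts, none of the 75-base windows of 8 members came within 2 mismatches of a coding transcript of another gene. The exceptions were *Lrrc8e*, with 67 of 3804 windows (1.76%), and *Clcn2*, with 8 of 3870, all shared with *Polr2h*. Between members, the closest coding windows differed at 6 bases. Within the listed gene spans, annotated exons of *Lrrc8a*, *Lrrc8d*, *Clcn2* and *Cftr* shared 35, 218, 83 and 129 bases with a gene on the opposite strand, and the counting was not stated to use strand.

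*Cftr* was the only member listed at 0 in either library. The gene is on chromosome 6, plus strand, 18120687 to 18272769. It reached an RPKM of 6.06 in CvP (interval 5.71 to 6.43, about 1104 reads), and it was listed at 0 in Epi. In a library of the depth of the Epi, 3 reads of *Cftr* would have been worth an RPKM of 0.0167, and a count of 0 allows an RPKM of up to 0.0206 (exact Poisson). No ratio was calculated against the 0. Of all 18498 rows, 2207 were listed at 0 in Epi and 895 in CvP. All 8 housekeeping genes examined had values above 0 in both libraries, the lowest in Epi being *Tbp* at 4.42. Genes at such levels could not show how a row comes to be listed at 0. *Cftr* ranked number 6 of the 10 members in CvP and stood above 59.0% of all rows of that library.

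Several sets of markers moved with *Cftr*. Beside the taste markers and the immune markers above, the list of ionocyte and duct cell markers, cells in which *Cftr* is abundant in other epithelia, summed to 5.04 in CvP and 0.10 in Epi over the 7 genes with a row. Its 2 members with the highest RPKM were *Stc2* (2.97 and 0.02) and *Atp6v1b1* (1.07 and 0.06). *Foxi1*, the defining transcription factor of ionocytes, had an RPKM of 0.76 in CvP and was listed at 0 in Epi. *Ascl3* and *Bsnd*, which also define such cells, were at 0.05 and 0 in CvP. Of the taste markers, *Ddc*, *Kcnq1*, *Pkd2l1* and *Snap25* were also listed at 0 in Epi, with an RPKM of 7.59, 14.3, 16.8 and 11.1 in CvP. The salivary gland markers were split. Of the 9 with a row, 8 reached an RPKM of 1 in CvP, in Epi or in both. Of these 8, 4 were more than 2-fold higher in CvP, among them *Ltf* (1048 and 28.5). Another 3 were more than 2-fold lower, among them *Lipf* (1.96 and 313), and 1 was within 2-fold. The part of these cells in the *Cftr* value was not tested. *Foxi1*, *Ascl3*, *Bsnd* and these taste markers at 0 in Epi were named after their values were seen.

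**Figure D1:**
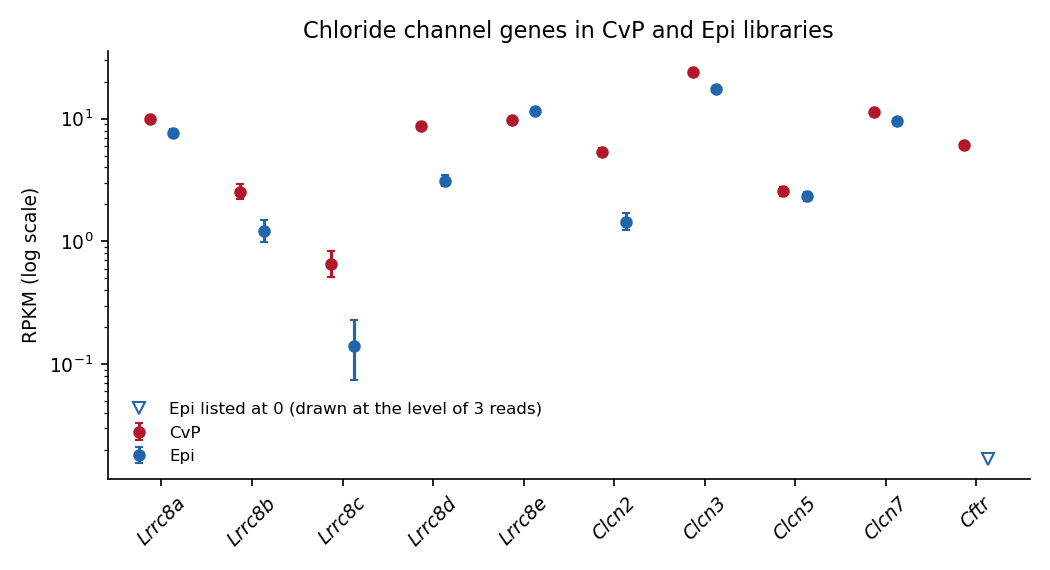
RPKM of the 10 members (log scale) in CvP and Epi libraries, 1 library each, with 95% exact Poisson intervals of counting error. *Clcn3* is highest in both libraries at 24.0 and 17.5, and *Cftr* is at 6.06 in CvP and listed at 0 in Epi, drawn as an open triangle at the level of 3 reads.

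The LRRC8 subunits were not shifted together. *Lrrc8a*, the obligatory subunit (chromosome 2, 30093289 to 30119310), had an RPKM of 10.01 in CvP and 7.70 in Epi. Its ratio of 1.30 (1.19 to 1.42) was that of the median gene, and divided by the median ratio it was 0.990. *Lrrc8e* (chromosome 8, 4226827 to 4237470) was the only member with a ratio under 1. Its RPKM was 9.80 in CvP and 11.6 in Epi, a ratio of 0.844 (0.777 to 0.916), which became 0.643 relative to the median gene but 1.02 when both libraries were rescaled to the same summed RPKM.

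*Lrrc8b*, *Lrrc8c* and *Lrrc8d* were higher in CvP. *Lrrc8d*, whose protein makes the channel permeable to larger uncharged solutes and to taurine, had an RPKM of 8.67 in CvP and 3.12 in Epi, a ratio of 2.78 (2.45 to 3.15). It stayed above 1 under each scaling, between 1.86 and 3.35. *Lrrc8b* had an RPKM of 2.54 and 1.21, a ratio of 2.10 (1.64 to 2.71). Genes of its level were themselves more often higher in CvP. Rows of like level were those with an RPKM of at least 1 in both libraries and a geometric mean RPKM within 2-fold. Rows below 1 in Epi thus did not enter, although *Lrrc8b* itself was near that limit. For *Lrrc8b* these were 1995 rows with a median ratio of 1.63, and relative to them *Lrrc8b* was at 1.29. *Lrrc8c* was low in both tissues, at an RPKM of 0.66 in CvP, about 69 reads, and 0.14 in Epi, about 14 reads. Its ratio of 4.71 had the widest interval of the members, from 2.70 to 9.33.

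These 3 genes are neighbours. They lie in the same orientation on the plus strand of chromosome 5, *Lrrc8b* from 105844794 to 105915208, *Lrrc8c* from 105948490 to 106037973 and *Lrrc8d* from 106128988 to 106244234, with gaps of 33.3 and 91.0 kb between them. *Lrrc8a* and *Lrrc8e* lie on other chromosomes. *Zfp326*, the next gene after *Lrrc8d*, had an RPKM of 14.5 in CvP and 6.59 in Epi, a ratio of 2.20. Beyond it *Barhl2* was listed at 0 in both libraries, and *Zfp644* had a ratio of 1.94. On the other side *Gbp6* had 0.86 and 0.28, and *Gbp10* 0.32 and 0.08. *Gbp11*, the nearest row before *Lrrc8b*, was at 0.01 in CvP and listed at 0 in Epi. Of all rows with an RPKM of at least 1 in both libraries, 75.5% were higher in CvP, so a higher neighbour was the ordinary case. These neighbours were looked up after the ratios of the cluster were seen.

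The make-up of the LRRC8 transcripts within each library does not depend on how the libraries are scaled. The summed RPKM of the 5 subunits was 31.7 in CvP and 23.8 in Epi. *Lrrc8a* held nearly the same share in both, 31.6% in CvP (30.1 to 33.1) and 32.4% in Epi (30.6 to 34.1). *Lrrc8e* held 30.9% (29.4 to 32.5) in CvP and 48.8% (46.9 to 50.7) in Epi, where it was the most abundant subunit. *Lrrc8d* held 27.4% (25.9 to 28.8) in CvP and 13.1% (11.8 to 14.4) in Epi. *Lrrc8b* and *Lrrc8c* held 8.02% and 2.08% in CvP and 5.09% and 0.589% in Epi. These intervals are from the delta method on the estimated reads.

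The RPKM of *Lrrc8d* over that of *Lrrc8e* was thus 0.885 in CvP and 0.269 in Epi, a 3.29-fold difference (2.84 to 3.82, normal approximation on estimated reads). Relative to *Lrrc8a*, *Lrrc8d* was 2.14-fold higher in CvP (1.84 to 2.48), *Lrrc8c* 3.63-fold (2.03 to 6.48) and *Lrrc8b* 1.61-fold (1.25 to 2.09), while *Lrrc8e* was at 0.649 (0.577 to 0.731). These quotients compare the tissues within the same gene models, so neither the scaling nor the gene length enters them. The shares do depend on gene length. With the longest annotated transcript in place of the listed length, *Lrrc8a* was the most abundant subunit in both libraries, at 35.9% in CvP and 38.9% in Epi, and *Lrrc8e* was at 22.8% and 38.1%.

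**Figure D2:**
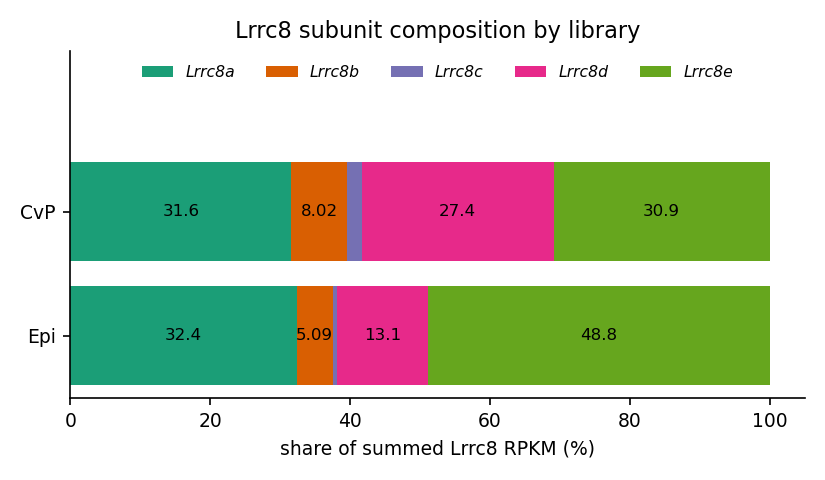
Share of each subunit in the summed RPKM of the 5 Lrrc8 genes (%), 1 bar per library. The share of *Lrrc8d* is 27.4% in CvP and 13.1% in Epi, that of *Lrrc8e* is 30.9% and 48.8%, and that of *Lrrc8a* is 31.6% and 32.4%; *Lrrc8c*, 2.08% and 0.589%, is drawn without a number.

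Among the CLC genes, *Clcn2* stood apart. It encodes ClC-2, an inwardly rectifying chloride channel of the plasma membrane that opens on hyperpolarization. The gene is on chromosome 16, minus strand, 20703039 to 20716709. It reached an RPKM of 5.36 in CvP (4.94 to 5.81) and 1.45 in Epi (1.23 to 1.69), and these intervals do not overlap. The ratio was 3.70 (3.10 to 4.43), which was 2.82 relative to the median gene and 2.29 relative to rows of like level.

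The vesicular exchangers showed small ratios. *Clcn3* (chromosome 8, 63389186 to 63462108), of endosomes and synaptic vesicles, was the highest of the 10 genes in both tissues, with an RPKM of 24.0 in CvP and 17.5 in Epi and a ratio of 1.37 (1.30 to 1.44). *Clcn7* (chromosome 17, 25270339 to 25299044), the lysosomal exchanger, had 11.4 and 9.57, a ratio of 1.19 (1.10 to 1.29). *Clcn5* (chromosome X, 6735945 to 6765840), the exchanger of early endosomes that is mutated in Dent disease, had 2.56 and 2.34. Its ratio was 1.09, and the interval, 0.972 to 1.23, included 1, so that counting error alone could cover the difference. Divided by the median ratio, *Clcn3* was at 1.04, *Clcn7* at 0.909 and *Clcn5* at 0.833, so that the direction of *Clcn7* and of *Clcn5* turned with the scaling. Relative to rows of like level *Clcn5* was at 0.678. The RPKM of *Clcn2* over that of *Clcn3*, which no scaling touches, was 2.70-fold higher in CvP (2.25 to 3.24), and over that of *Clcn7* it was 3.10-fold higher (2.56 to 3.75).

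**Figure D3:**
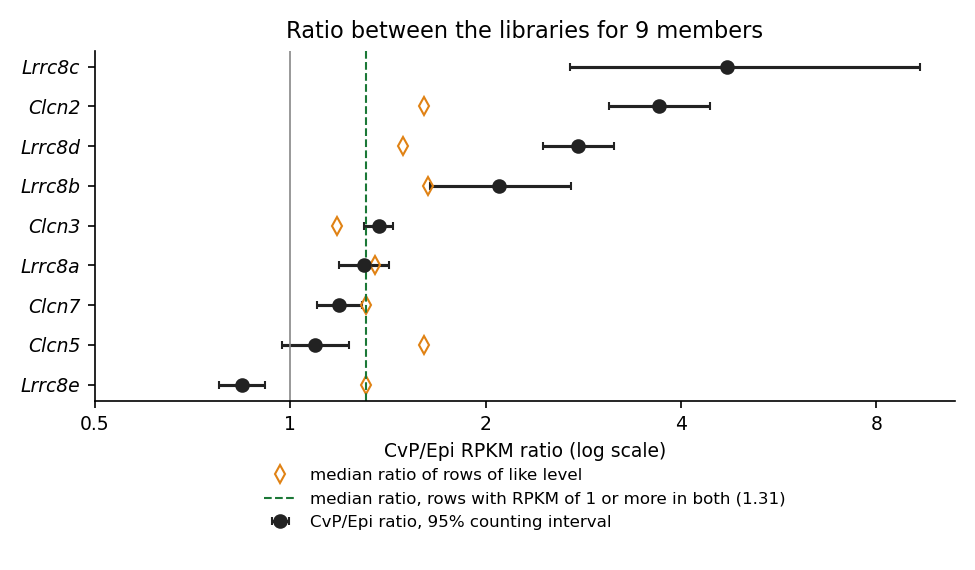
CvP/Epi ratio of RPKM (log scale) for the 9 members with an Epi value above 0, with 95% exact counting intervals, the median ratio of the rows with 1 RPKM or more in both libraries at 1.31 (dashed line) and the median ratio of rows of like level (open diamonds, not available for *Lrrc8c*). *Clcn2*, *Lrrc8c* and *Lrrc8d* have intervals wholly above 2, and that of *Lrrc8e* lies below 1.

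Of the 10 members, 9 had 1 RPKM or more in at least 1 library, *Lrrc8c* being the exception. More than 2-fold higher in CvP were 4 of the 9, namely *Cftr*, *Clcn2*, *Lrrc8d* and *Lrrc8b*, against 28.2% of the 12549 rows of the table with such an RPKM. *Cftr* passed this limit on RPKM through the CvP alone, so it could only count as higher. *Lrrc8b* no longer counted once ratios were divided by the median ratio (1.60) or a pseudocount of 1 was used (1.60). None of the 9 was more than 2-fold lower, against 3.75% of the rows. With so few genes the counts describe these members and no more. Limits of more than 10 RPKM in CvP and more than 3-fold the Epi value were passed by 0 of the 10 members and by 435 rows, 2.35% of all. The 3 members above an RPKM of 10 in CvP (*Lrrc8a*, *Clcn3* and *Clcn7*) had ratios from 1.19 to 1.37, and the members above a ratio of 3 (*Cftr*, *Clcn2* and *Lrrc8c*) had CvP values from 0.66 to 6.06. With a minimum CvP RPKM of 3 in place of 10, *Cftr* and *Clcn2* passed, among 1120 rows or 6.05% of all. The first of these limits is the one in the study's text. The second returned as many rows as the candidate list reported there, and the first returned fewer. Whether the genes of that list were the same was not checked.

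The order of the members also differed between the tissues. In the CvP *Clcn3* was followed by *Clcn7* and then by *Lrrc8a*, *Lrrc8e* and *Lrrc8d*, of which the neighbours *Lrrc8a* and *Lrrc8e*, and *Lrrc8e* and *Lrrc8d*, had overlapping intervals. *Cftr* and *Clcn2* came next and overlapped each other, then *Clcn5* and *Lrrc8b*, which also overlapped, and *Lrrc8c* was lowest. In the Epi *Lrrc8e* was second to *Clcn3*, and *Clcn7*, *Lrrc8a*, *Lrrc8d* and *Clcn5* followed with intervals that did not overlap. *Clcn2* (1.45) and *Lrrc8b* (1.21) overlapped, and *Lrrc8c* and *Cftr* were lowest. These intervals do not cover the choice of gene length, on which the order depends. With the longest annotated transcript as length, *Clcn3*, *Clcn7* and *Lrrc8a* ranked number 1, 2 and 3 in both tissues. *Lrrc8e* then ranked number 5 in CvP and number 4 in Epi.

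Other genes that work with these channels were taken from fixed lists. A gene that reached an RPKM of 1 in CvP alone could not count as lower. This held for *Clcn6*, *Slc9a3r2*, *Stx1a*, *Wnk2*, *Slc5a3*, *Atp6v1g2*, *Atp6v1b1*, *Clic6* and *Ttyh2*, which all counted as higher. Of 8 further CLC genes and CLC partner subunits, 6 had a row and 3 an RPKM of at least 1. *Clcn4-2*, a vesicular exchanger close to ClC-3 and ClC-5, had an RPKM of 24.1 in CvP and 16.3 in Epi, and *Clcn6*, of late endosomes, had 1.95 and 0.69, a ratio of 2.83 (2.18 to 3.70). *Ostm1*, the partner subunit of ClC-7, had 8.72 and 5.35, a ratio of 1.63, and was, like the next 2 genes, named after its value was seen. *Bsnd*, which encodes a CLC partner subunit of kidney and inner ear, was listed at 0 in both libraries, and *Clcn1*, the channel of skeletal muscle, was at 0.19 in CvP and 0.03 in Epi.

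Of 15 partners and regulators of CFTR, all passed the limit on RPKM, 3 were more than 2-fold higher in CvP, against 28.2% of all rows past the limit, and none was more than 2-fold lower, against 3.75%. The 3 were *Adcy6*, an adenylyl cyclase (9.56 and 3.82), *Stx1a*, a syntaxin that binds CFTR (2.76 and 0.82), and the scaffold gene *Slc9a3r2* (1.22 and 0.48). The highest of the list in CvP was *Ezr*, which encodes ezrin, the link of membrane proteins to actin, at 132 in CvP and 92.4 in Epi. In Epi the highest was *Slc9a3r1*, at 70.7 in CvP and 132 in Epi, a ratio of 0.536 (0.516 to 0.558). It was named after its value was seen, and the other 14 of the 15 were higher in CvP. The median log2 ratio of the list, with a pseudocount of 0.1, was 0.43, against 0.50 over all rows past the same limit.

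Genes of cell volume regulation and cation-chloride cotransport had a median of 0.97, and 7 of the 14 past the limit were more than 2-fold higher in CvP (28.2% of all rows) with none more than 2-fold lower (3.75% of all rows). *Slc12a2*, the sodium-potassium-chloride cotransporter that loads cells with chloride, had an RPKM of 45.2 in CvP and 6.47 in Epi, a ratio of 6.99 (6.58 to 7.44). The potassium-chloride cotransporter *Slc12a7* (13.5 and 1.95), which carries chloride out of cells, and *Nfat5* (13.7 and 6.73), the transcription factor of the response to high osmolarity, were also higher. The other 7 were within 2-fold. Of these, *Wnk1* (21.4 and 27.7), *Wnk4* (18.7 and 28.2), *Oxsr1* (13.2 and 15.4) and *Stk39* (5.64 and 5.80) had ratios under 1, and the rest had ratios above 1. These genes were named after their values were seen.

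The vesicular proton pump, which acidifies the compartments of the vesicular CLC exchangers, had a median of 0.08. Of its 22 genes past the limit 18 were within 2-fold, with *Atp6v1e1* highest at 187 in CvP and 157 in Epi. The 4 that were more than 2-fold higher, against 28.2% of all rows, were *Atp6v0e2* (16.3 and 4.14), *Tcirg1* (7.40 and 3.62), *Atp6v1g2* (1.58 and 0.39) and *Atp6v1b1* (1.07 and 0.06). Of 10 other genes linked to chloride channels past the limit, 5 counted as more than 2-fold higher (28.2% of all rows), 1 of them being listed at 0 in Epi, 1 was lower (3.75% of all rows), and the median was 1.08. *Tmc4*, the subject of the study, had an RPKM of 43.2 in CvP and 4.29 in Epi, above each of the 10 members in CvP. *Ttyh3* (7.07 and 2.01) and *Clic4* (10.4 and 4.49) were higher as well, *Clic3* was lower (77.3 and 165), and *Clic1* was the highest of the list in CvP (202 and 162). *Clic6*, named after its value was seen, resembled *Cftr*, with an RPKM of 4.13 in CvP and listed at 0 in Epi.

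**Figure D4:**
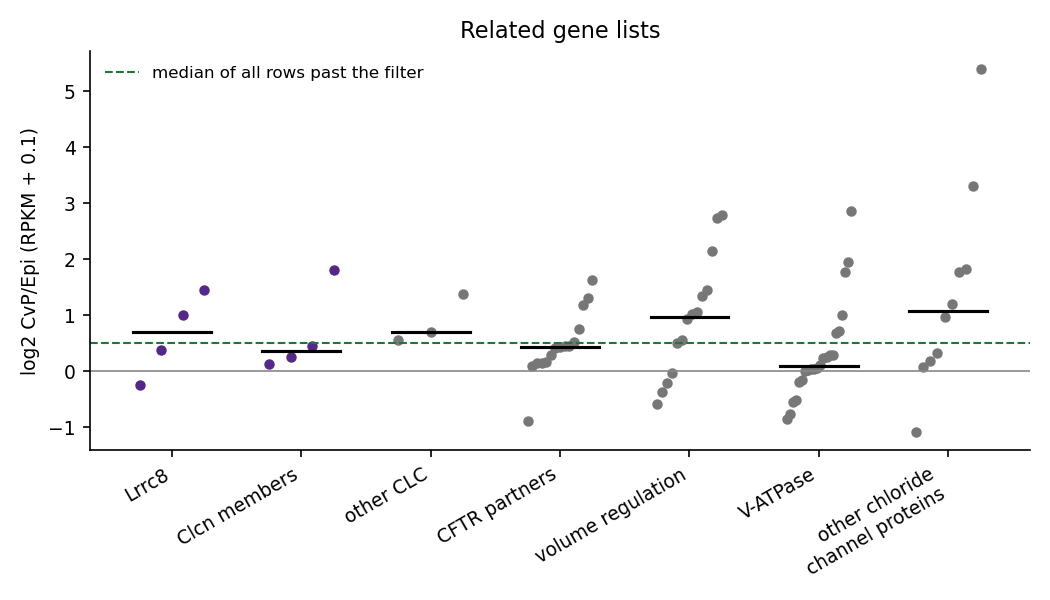
log2 CvP/Epi ratio with a pseudocount of 0.1 for each gene with 1 RPKM or more in at least 1 library, by list, with the list median (black bar) and the median of all such rows at 0.50 (dashed line). The medians run from 0.08 for the proton pump to 1.08 for the other chloride channel proteins; *Clic6* is the highest point, and *Cftr* belongs to neither of the first 2 lists and is not drawn.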

How the data were processed

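The authors mapped single-end reads of 75 bases with Bowtie 0.12.7 to NCBI37/mm9 and deposited RPKM values from ERANGE on an exon model per gene, with a gene length. How ERANGE was set, and what became of multiply mapping reads, is not given in the sources used here. The authors' ratio column was not used. Poly(A) RNA libraries were made with a TruSeq kit, 1 per tissue.

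Depth was estimated from the RPKM steps in the 163 rows of 0.1 kb. Among genes no longer than 0.5 kb and below 20 reads, 96.4% of CvP and 97.4% of Epi values lay within 0.1 of a whole number of reads. Reads behind each RPKM were estimated with the listed length or, if shorter, the longest GENCODE M1 coding transcript, which listed lengths often exceed (*Lrrc8b*, 6.71 and 2.84 kb; *Clcn7*, 10.7 and 4.07 kb). Ratios carry Clopper-Pearson intervals and levels exact Poisson intervals, which cover counting error only. The depth estimate and the ratio intervals were checked on simulated data, and the Poisson intervals were not. The limit on low values was an RPKM of 1 in either library, and a pseudocount of 0.1 was used for list medians only, which understates the change of low genes. The median ratio and the rows of like level took an RPKM of 1 in both libraries.

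The members and lists were chosen with earlier results of these data known. Named besides the members were, of each list, up to 4 genes more than 2-fold different by highest RPKM and the highest in the CvP, and of the cell type markers the 2 highest, except that some genes the rule names are not reported here; the marker lists of fibroblasts, glia and housekeeping genes are given in the closing section. Windows were compared and placed with the genome and annotation of NCBI37/mm9. Alternatives were other scalings, pseudocounts, fold limits, filters and gene lengths. Calculations used Python 3.11.15, numpy 2.4.6, pandas 2.3.3, scipy 1.17.1 and matplotlib 3.10.9.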

Additional observations from a re-analysis of the deposited data

How the results depend on the processing

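No paired analysis was possible because there was only 1 CvP and 1 Epi library, and nothing was tested. Depth limits *Lrrc8c* and *Cftr* in Epi most.

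The scalings shift every log2 ratio alike, by -0.39 for division by the median ratio, -0.41 for the trimmed mean ratio and 0.27 for a common sum. The ratio of *Lrrc8a* then turned to 0.990 and 0.981 with the first 2 and 0.966 relative to rows of like level (an alternative chosen after seeing the data), that of *Clcn7* to 0.909, 0.900 and 0.909 and that of *Clcn5* (1.09 as deposited) to 0.833, 0.826 and 0.678 in the same order, and that of *Lrrc8e* to 1.02 with a common sum. The ratios of *Clcn2*, *Lrrc8b*, *Lrrc8c* and *Lrrc8d* stayed above 1 under each alternative run (that by like level was not run for *Lrrc8c*), with lowest values of 2.29, 1.29, 1.46 and 1.86. Members more than 2-fold higher were 3 with the median ratio, the trimmed mean ratio or a pseudocount of 1, where *Lrrc8b* was at 1.60, 1.58 and 1.60, 2 at a fold of 3 and 5 without the limit on RPKM. Members above 10 RPKM and 3-fold were 2 at a minimum RPKM of 3. With a common sum they were 3, but both libraries were then rescaled to 1000000, from 341141 in CvP and 411512 in Epi. The limit of 10 was kept, so on the deposited scale it was a lower limit, and this count is not a like comparison.

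In the order median ratio, trimmed mean ratio and common sum, the list medians were 0.30, 0.29 and 0.96 for the LRRC8 subunits (0.69 as deposited), -0.04, -0.05 and 0.62 for the CLC members (0.35), 0.30, 0.29 and 0.97 for the other CLC genes (0.69), 0.04, 0.03 and 0.70 for CFTR partners, 0.58, 0.57 and 1.24 for volume regulation, -0.31, -0.32 and 0.35 for the proton pump, and 0.69, 0.68 and 1.35 for the other chloride channel proteins. With a pseudocount of 1 the medians were 0.51, 0.85 and 0.90 for the LRRC8 subunits, volume regulation and the other chloride channel proteins, and without the limit on RPKM 1.01, 0.74 and 0.97.

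As shares of estimated reads, *Lrrc8a* was 34.5% in CvP and 35.1% in Epi and *Lrrc8b* 5.78% and 3.64%. These reads were estimated with the listed length or, if shorter, the longest annotated coding transcript. The shares per annotated length instead took the RPKM as divided by the full listed length. These alternatives thus rest on opposite assumptions for genes with a longer listed length, such as *Lrrc8a* and *Lrrc8b*, and which holds was not tested. Per annotated length (chosen after seeing the data) the shares in CvP and Epi were 35.9% and 38.9% for *Lrrc8a*, 14.0% and 9.37% for *Lrrc8b*, 0.810% and 0.242% for *Lrrc8c*, and 22.8% and 38.1% for *Lrrc8e*, and 12 of 20 ranks by level changed.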

Other observations

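Marker lists of other cells gave these levels, and their part in the channel values was not tested. The 5 fibroblast markers summed to an RPKM of 26.2 in CvP and 128 in Epi, nearly all of it *Dcn* (26.1 and 128), and *Col3a1* was at 0.05 and 0.25. The 5 glia and nerve markers summed to 11.6 and 9.32, with *Mbp* at 10.3 and 8.94. The 8 housekeeping genes summed to 2629 and 2564, all of them within 2-fold, with *Rplp0* at 577 and 896. The highest taste markers were *Krt18* (161 and 0.62) and *Gnat3* (127 and 0.03), the highest immune markers *Lyz2* (132 and 0.43) and *Cd68* (10.8 and 4.45), the highest muscle markers *Acta1* (0.86 and 12.9) and *Tnnc2* (0.76 and 11.1), and the highest epithelial markers *Krt13* (17549 and 47815) and *Krt4* (11801 and 22406), each as RPKM in CvP and the Epi.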
